A study of Mus musculus with 12 samples.

Results

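The 34 genes described here belong to the cell's response to amino-acid shortage and to unfolded protein in the endoplasmic reticulum (ER), followed in mouse macrophages exposed to the bacterial lipopeptide MALP-2. They were taken as a named list, each gene read from the probeset with the highest mean over 11 of the 12 arrays, and all 34 have a probeset among the 18194 genes of the table. The list holds 13 genes of the amino-acid arm of the transcription factor ATF4 (6 factors and regulators, 7 enzymes and transporters), 13 ER chaperones and folding enzymes, 5 stress sensors with their feedback, and 3 genes of ER-associated degradation. A floor of 3.86 on the log2 scale, the table's overall median, marks low levels. In each of these 11 arrays 32 of the 34 were at or over it, and Atf5 and Pdia4 were under it in some. The cells were peritoneal macrophages recruited with thioglycollate, which draws inflammatory cells into the peritoneal cavity. They came from wild-type mice, from mice lacking the kinase IRAK2, and from mice deficient in IRAK1 as well as IRAK2, called the double knockout in what follows. Each genotype was sampled at 0 h without MALP-2 and after 2, 4 and 8 h at 100 ng/ml, with 1 array per genotype and time. How many mice each array stands for, and their age and sex, are not given in the sources used here.

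ATF4 is made when one of several kinases, among them the ER sensor PERK (gene Eif2ak3), phosphorylates the initiation factor eIF2 alpha. It switches on genes for amino-acid synthesis and import, and some genes that shut the response down again. The other ER sensors, IRE1 (Ern1) and ATF6, act through the factors XBP1 and cleaved ATF6, which switch on chaperones that fold secreted and membrane proteins. In macrophages, Toll-like receptors such as the MALP-2 receptor TLR2 start a burst of secreted proteins, and they signal through the IRAK kinases.

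Some promoters of the list hold motifs by which the arms are known, and 3 of these are printed for the 250 bases before the start site. These 3 were chosen because they hold the motif of the ATF4 arm, that of the chaperones, and both kinds at once. RefSeq promoter windows of build GRCm38.p6, from 250 bases before to 50 after the start site, were found for 30 of the 34 genes, with none matched for Slc7a5, Hyou1, Manf and Atf6. They were searched on both strands for the ER stress element ERSE (CCAAT and CCACG with any 9 bases between them), its variant ERSE-II (ATTGG and CCACG with any 1 base between them) and an 8-letter core of the amino-acid response element (TGATGNAA). The 250 bases before each start site follow on the gene's own strand, with motif letters in capitals: the amino-acid core in Asns (chr6:7693210-7693459, minus strand), the amino-acid core on the opposite strand and then ERSE-II in Herpud1 (chr8:94386179-94386428, plus strand), and ERSE in Hspa5 (chr2:34771840-34772089, plus strand).
Asns: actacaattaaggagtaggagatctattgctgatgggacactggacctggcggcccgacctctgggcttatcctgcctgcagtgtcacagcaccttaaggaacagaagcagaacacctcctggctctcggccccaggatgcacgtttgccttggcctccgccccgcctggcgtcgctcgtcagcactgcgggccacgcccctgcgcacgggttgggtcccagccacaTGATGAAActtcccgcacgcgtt
Herpud1: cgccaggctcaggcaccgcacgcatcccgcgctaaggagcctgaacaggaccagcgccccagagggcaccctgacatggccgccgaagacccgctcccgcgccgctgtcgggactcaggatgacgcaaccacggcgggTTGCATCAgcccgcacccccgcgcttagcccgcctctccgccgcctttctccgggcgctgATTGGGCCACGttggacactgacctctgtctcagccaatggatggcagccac
Hspa5: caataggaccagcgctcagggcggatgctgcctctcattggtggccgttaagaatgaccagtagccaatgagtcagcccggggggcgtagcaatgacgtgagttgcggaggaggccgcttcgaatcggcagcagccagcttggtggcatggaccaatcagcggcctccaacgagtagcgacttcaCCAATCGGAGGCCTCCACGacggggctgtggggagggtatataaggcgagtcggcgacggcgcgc

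ERSE was found in 7 of the 11 chaperone promoters with a window (Calr, Canx, Creld2, Dnajc3, Hsp90b1, Hspa5 and Pdia6), in no other promoter of the list, and in 37 of 27025 genes with a window (0.137%). ERSE-II was found in Herpud1 alone of the list and in 12 genes in all (0.0444%). The amino-acid core is short and common: 4.51% of all genes carry it, as do Asns, Chac1, Herpud1 and Trib3 here. In the ATF4 arm it was thus found in 1 of 6 promoters of enzymes and transporters and in 2 of 6 of factors and regulators, and the 4 sensor and feedback promoters held 0 of the 3 motifs. In Herpud1 it does not overlap ERSE-II. The chaperone stretches are shown because they let the shared letters at each end of ERSE be read against the changing letters between them, and the Chac1 and Trib3 stretches because they carry the core of Asns. Each is printed on the strand on which the motif reads, with the motif in capitals: Calr chr8:84847070-84847098, Canx chr11:50325795-50325823, Creld2 chr15:88819515-88819543, Dnajc3 chr14:118937822-118937850, Hsp90b1 chr10:86705528-86705556 and chr10:86705633-86705661, Pdia6 chr12:17266486-17266514, Chac1 chr2:119351041-119351064 and Trib3 chr2:152344031-152344054, the last lying 18 bases after the start site. A match is a string of letters in this window, and binding was not measured.
Calr (plus strand): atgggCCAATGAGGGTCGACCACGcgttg
Canx (minus strand): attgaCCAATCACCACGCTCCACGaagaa
Creld2 (minus strand): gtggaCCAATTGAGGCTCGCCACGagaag
Dnajc3 (plus strand): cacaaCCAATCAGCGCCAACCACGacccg
Hsp90b1 (plus strand): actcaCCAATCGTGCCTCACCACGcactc
Hsp90b1 (minus strand): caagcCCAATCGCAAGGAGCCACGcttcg
Pdia6 (plus strand): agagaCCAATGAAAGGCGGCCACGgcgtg
Chac1 (minus strand): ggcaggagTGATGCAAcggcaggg
Trib3 (plus strand): cgcccggcTGATGTAAacctgagc

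Not all arrays are alike. The array labelled double knockout 0 h had correlations between 0.764 and 0.804 with the rest, among which no correlation was under 0.954. Its spike-in controls had a median of 12.38 against 10.54 to 11.07. It lies below the range of the other 11 for 18 of the 34 genes and above it for 4, so it enters no main fit, and each result that uses it is given with and without it. The Irak2 probeset read 5.77 to 6.69 in wild type, 4.65 to 5.63 in the IRAK2 knockout and 4.61 to 5.19 in the stimulated double knockout. In the array labelled double knockout 0 h it read 3.53, the lowest of all arrays. The Irak1 probeset read 8.11 to 8.31 in the stimulated double knockout against 8.46 to 8.59 in wild type, and 10.84, the highest of all arrays, in the array labelled double knockout 0 h. Probe positions against the deleted exons were not at hand, so Irak1 does not check that label. Macrophage markers had a mean of 9.61 to 9.94 in the 11 arrays with 7 to 8 of 8 at the floor. In the array labelled double knockout 0 h their mean was 7.86, with 8 of 8 at the floor. The marker values that follow are of the 11 arrays. Of T and NK cell markers 0 to 1 of 5 reached it, of neutrophil markers 1 to 2 of 5, of B cell markers 1 to 3 of 4, of mesothelial markers 1 to 3 of 5 and of eosinophil and mast cell markers 2 of 5. Plasma cells are rich in chaperones, and 3 of their 5 markers reached the floor (list mean 5.49 to 6.05), while Tnfrsf17 and Mzb1 did not. That mean rests mostly on Sdc1 (9.60 to 10.56) and Prdm1 (7.17 to 8.45), whereas Jchain read 3.92 to 6.47. In bulk RNA, fewer cells of a type and less RNA per cell cannot be told apart.

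In wild-type and IRAK2-knockout macrophages, averaged over 2, 4 and 8 h of MALP-2, calls in the ATF4 arm were increases and calls among the ER chaperones decreases. Of the 13 ATF4 genes 7 rose and 0 fell, and of the 13 chaperones 0 rose and 5 fell. The largest increases in the list were of Mthfd2, Herpud1, Ppp1r15a, Asns and Phgdh, and the largest decrease was of the PERK gene Eif2ak3. These calls come from an additive limma fit of genotype and time to the 8 arrays of the 2 genotypes, at a Benjamini-Hochberg adjusted p under 0.05 over 10670 genes. Values are differences on the log2 scale between the mean of 2, 4 and 8 h and 0 h, where 1 means 2-fold. A p-value of this fit, and of those that follow, weighs a difference against its constancy over genotypes or times, not against the spread between mice. MALP-2 changed 47.5% of all genes tested (19.1% higher, 28.4% lower), and 16 of the 34 (9 higher, 7 lower) is about that share. The median difference was 0.34 for the ATF4 arm, -0.16 for the chaperones and -0.06 for all genes. With the 3 stimulated times taken singly against the shared 0 h arrays, 17 of the 34 were called at 2 h, where 45.9% of all genes were (16.5% up, 29.4% down). The 4 h arrays gave 12 calls, against 41.0% of all genes (17.5% up, 23.4% down), and the 8 h arrays 15, against 33.2% (14.9% up, 18.3% down). In the ATF4 arm the 2 h arrays gave 7 increases, those of 4 h gave 5, and those of 8 h gave 5 together with 1 decrease, that of Psat1 (-0.44, adjusted p 0.0284). Among the chaperones each time gave 4 decreases, and the 2 h arrays also gave 1 increase, that of Hspa5. With all 12 arrays in the fit, 6 of the 16 were called (Asns, Herpud1, Hsp90b1, Mthfd2, Ppp1r15a and Slc7a5). With the stimulated double-knockout arrays added but not the array labelled double knockout 0 h, Atf4, Chac1, Dnajb9, Ern1 and Sdf2l1 lost the call.

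**Figure D1:**
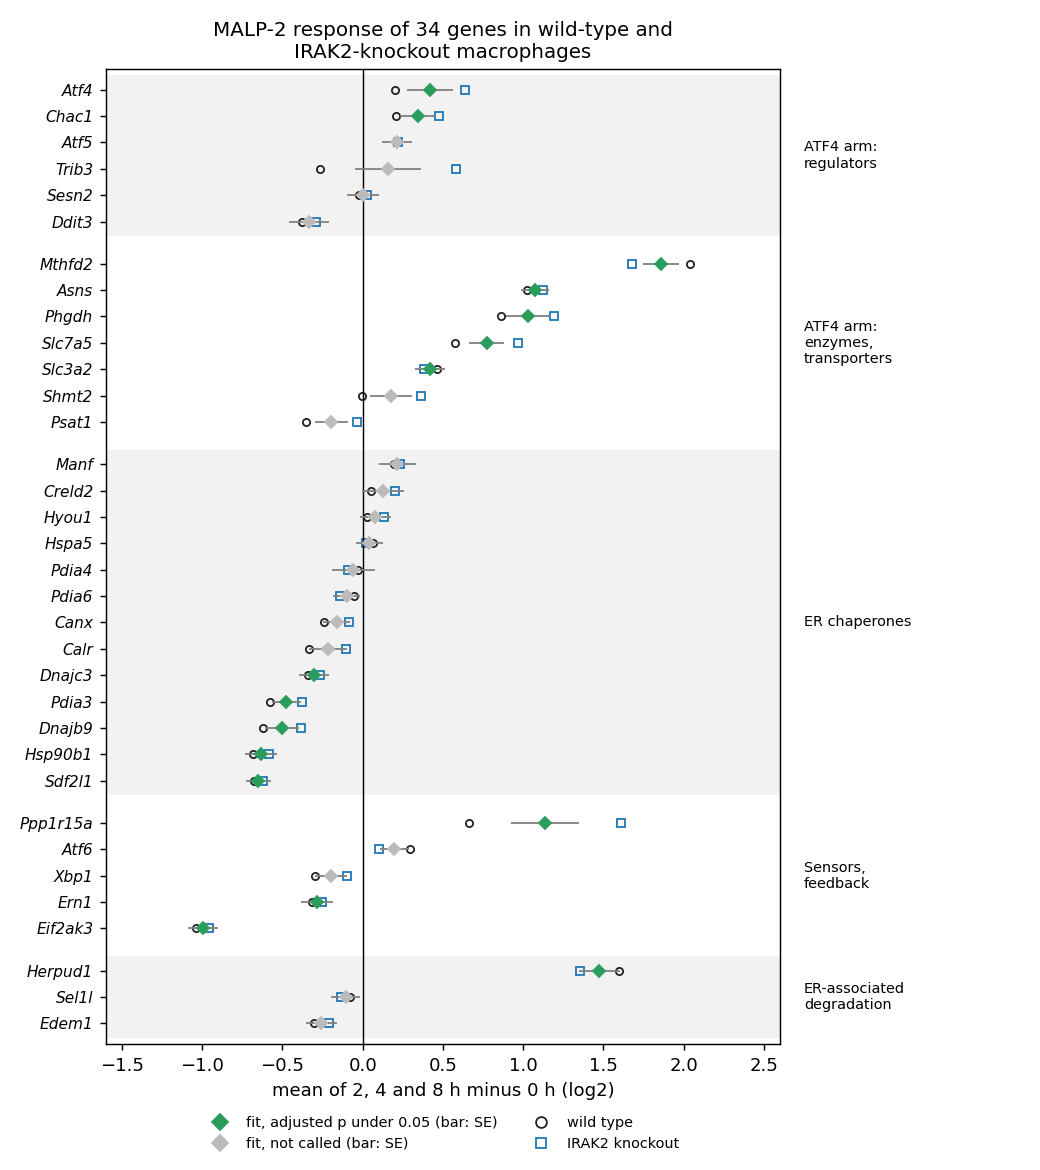
MALP-2 response of the 34 genes (vertical axis, grouped by role), as the mean of 2, 4 and 8 h minus 0 h on the log2 scale. Diamonds give the limma estimate over both genotypes with its SE, green where the adjusted p is under 0.05, and open circles and squares the wild-type and IRAK2-knockout arrays alone; the 7 called ATF4 genes lie right of 0 and the 5 called chaperones left of it.

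The enzymes and transporters of the ATF4 arm moved most. Mthfd2, the mitochondrial folate enzyme that passes on one-carbon units, read 6.15, 7.74, 8.61 and 8.22 at 0, 2, 4 and 8 h in wild type and 6.80, 8.21, 8.91 and 8.33 without IRAK2. It rose by 1.86 (SE 0.11, adjusted p 1.63e-05), every stimulated array lying above both 0 h arrays. Asns, asparagine synthetase, read 7.57, 8.36, 9.18 and 8.24 in wild type and 7.98, 8.98, 9.63 and 8.70 without IRAK2. It rose by 1.08 (SE 0.09, adjusted p 5.15e-05), again without overlap between stimulated and 0 h arrays. Phgdh, the first enzyme of serine synthesis, read 6.46, 6.82, 7.77 and 7.39 in wild type and 6.63, 7.56, 8.41 and 7.52 without IRAK2, and rose by 1.03 (SE 0.14, adjusted p 0.000605; 0.58 with the mean of its probesets). The amino-acid transporter subunits also rose. Slc7a5, the light chain of the large neutral amino-acid transporter, read 4.73, 5.16, 5.64 and 5.10 in wild type and 4.49, 5.40, 5.81 and 5.16 without IRAK2, a rise of 0.77 (SE 0.11, adjusted p 0.000785). Slc3a2, its heavy chain, read 10.80, 10.71, 11.55 and 11.53 in wild type and 10.85, 10.84, 11.50 and 11.35 without IRAK2 (0.42, SE 0.09, adjusted p 0.00688). Its 2 h arrays were no higher than those of 0 h, and it stood at 0.66 without the 2 h arrays and was no longer called without those of 4 h (0.28). Psat1, which follows Phgdh in serine synthesis, was not called (-0.19), nor was the serine hydroxymethyltransferase Shmt2 (0.18).

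A peak at 4 h was common to these enzymes and transporters. In wild type 6 of the 7 were highest at 4 h, as were 6 of the 7 in the IRAK2 knockout, against 17.2% and 22.1% of all genes measured. The exceptions were Psat1, highest at 0 h in wild type, and Shmt2, highest at 8 h in the knockout. Of the 13 chaperones 7 were highest at 0 h in each genotype (40.8% and 36.8% of all genes).

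**Figure D2:**
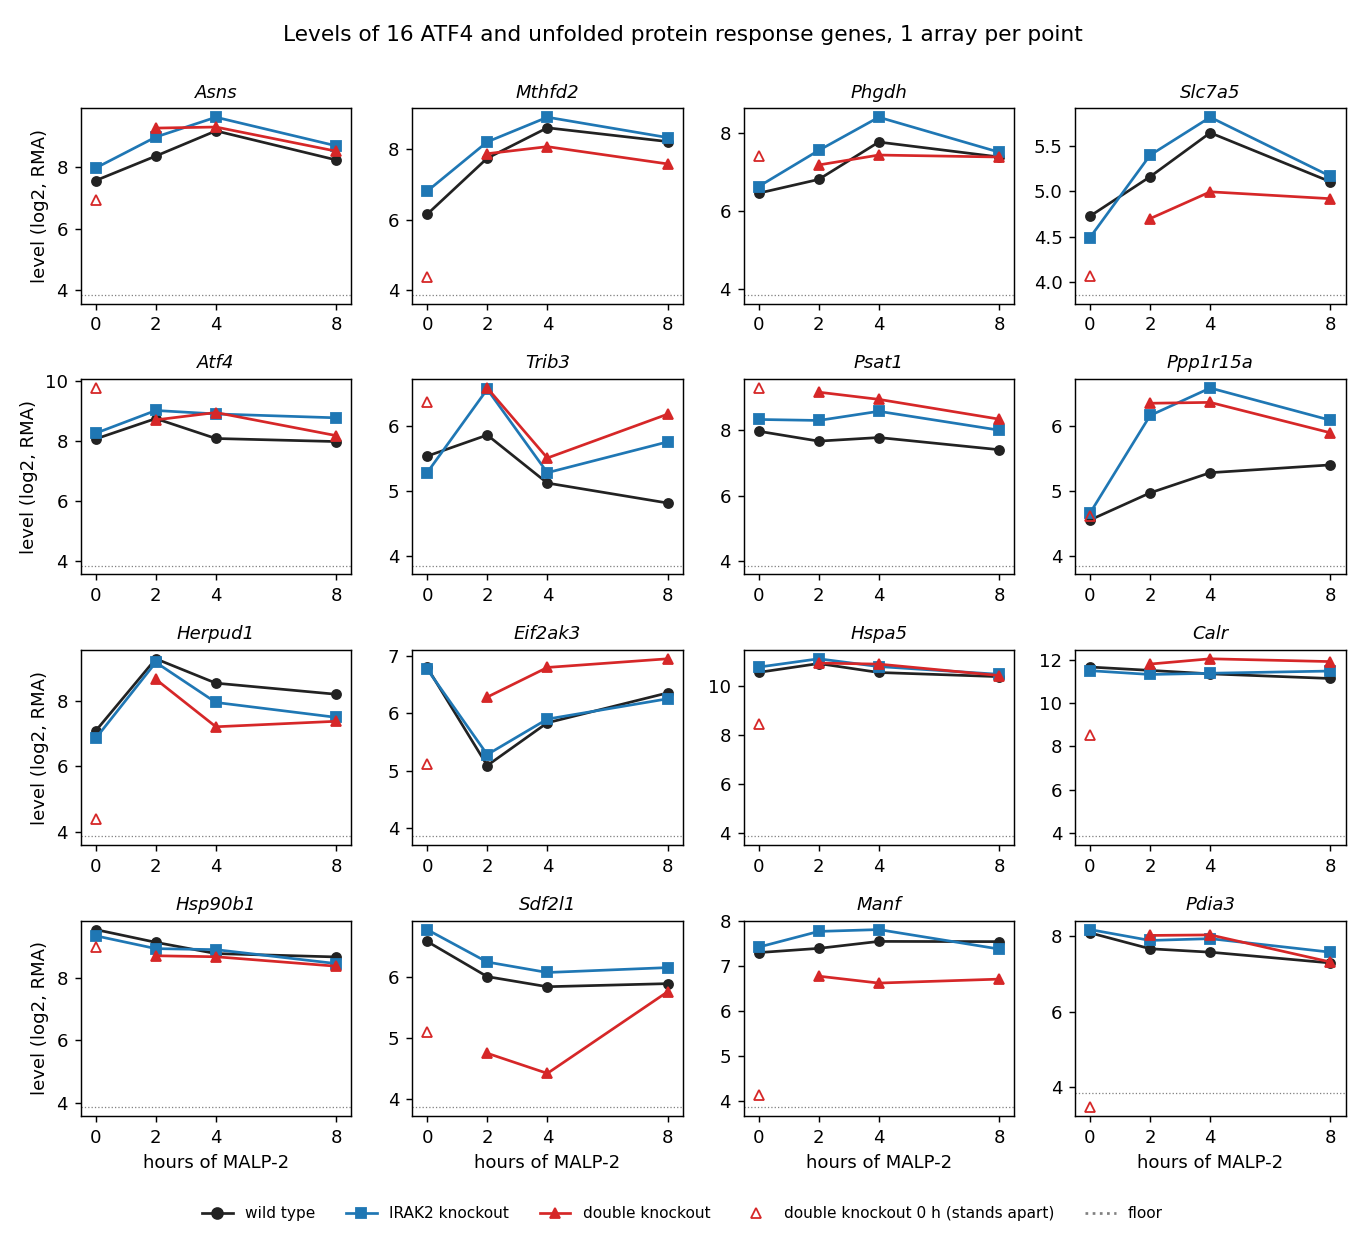
Levels (log2, RMA) of 16 of the genes against hours of MALP-2, with 1 array per point; black circles are wild type, blue squares the IRAK2 knockout and red triangles the double knockout, its 0 h array drawn open because it stands apart, and the dotted line is the floor of 3.86. Asns, Mthfd2, Phgdh and Slc7a5 peak at 4 h in wild type and the IRAK2 knockout, Herpud1 at 2 h, and Eif2ak3 has its lowest point at 2 h.

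Among the factors and regulators of the ATF4 arm, the changes were smaller. Atf4 itself read 8.08, 8.76, 8.10 and 8.00 in wild type and 8.27, 9.03, 8.92 and 8.79 without IRAK2. It rose by 0.42 (SE 0.14, adjusted p 0.0425), but in wild type only its 2 h array was clearly above 0 h, and without the 2 h arrays it was no longer called (0.27). Without probesets ending in _x_at or _s_at it stood at 0.63. ATF4 is controlled mostly at translation, which arrays do not measure. Chac1, a glutathione-degrading enzyme, read 4.15, 4.75, 4.12 and 4.22 in wild type and 4.32, 4.97, 4.72 and 4.70 without IRAK2 (0.34, SE 0.11, adjusted p 0.0332), and without the 2 h arrays it too was not called (0.20). The other 4 were not called: Atf5 (0.21), Trib3, a pseudokinase that restrains ATF4 (0.16), Sesn2, a leucine sensor (0.00), and the CHOP gene Ddit3, a factor linked to cell death (-0.33). Trib3 was highest at 2 h in both genotypes, at 5.86 in wild type and 6.56 without IRAK2.

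The chaperones divided into those that fell and those that were not called. Sdf2l1, a partner of ER Hsp40 proteins, read 6.59, 6.01, 5.85 and 5.90 in wild type and 6.79, 6.25, 6.08 and 6.16 without IRAK2. It fell by 0.65 (SE 0.08, adjusted p 0.000404), every stimulated array lying below both 0 h arrays. Hsp90b1, the ER form of HSP90 that folds Toll-like receptors among others, read 9.56, 9.15, 8.79 and 8.68 in wild type and 9.36, 8.95, 8.91 and 8.47 without IRAK2, and fell by 0.63 (SE 0.10, adjusted p 0.00131). Here too the stimulated arrays lay below those of 0 h. Dnajb9, a co-chaperone that holds IRE1 inactive, read 8.26, 7.81, 7.25 and 7.86 in wild type and 8.29, 7.90, 7.72 and 8.08 without IRAK2 (-0.50, SE 0.11, adjusted p 0.00585). Pdia3, a disulfide isomerase for glycoproteins, read 8.09, 7.67, 7.58 and 7.30 in wild type and 8.18, 7.89, 7.94 and 7.58 without IRAK2 (-0.48, SE 0.09, adjusted p 0.00331). For both, all stimulated arrays lay below the 0 h arrays. Dnajc3, a co-chaperone also known as p58IPK, read 9.58, 9.28, 9.28 and 9.16 in wild type and 9.62, 9.35, 9.28 and 9.45 without IRAK2 (-0.30, SE 0.09, adjusted p 0.0277), and was not called without the 2 h (-0.31) or the 4 h arrays (-0.29).

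Jchain, a marker from the plasma cell list, also read lower after MALP-2 in wild type, at 6.47 at 0 h and between 4.31 and 4.51 thereafter, whereas Sdc1 and Prdm1 of that list read higher (9.60 and 7.17 at 0 h, 10.35 and 7.98 at 2 h). Without IRAK2, Jchain was near the floor in all 4 arrays (3.92 to 4.30), and there the mean responses of the 5 chaperones that fell ran from -0.62 to -0.26. In wild type they ran from -0.69 to -0.34, each of the 5 falling more than without IRAK2. In the stimulated double knockout Jchain read 4.29, 5.51 and 4.86 at 2, 4 and 8 h. A link between Jchain and the chaperone decreases, or the genotype differences of chaperones, was not tested. The remaining 8 chaperones were not called, at differences between -0.22 and 0.21. They include Hspa5, the master chaperone BiP, which read 10.56, 10.92, 10.56 and 10.39 in wild type and 10.78, 11.12, 10.80 and 10.48 without IRAK2 (0.04, SE 0.08, adjusted p 0.71). In both genotypes its highest array was that of 2 h and its lowest that of 8 h, and at 2 h alone it rose by 0.35 (SE 0.10, adjusted p 0.0237). The lectin chaperones Calr and Canx stood at -0.22 and -0.16, the disulfide isomerases Pdia6 and Pdia4 at -0.10 and -0.06, and Hyou1, a nucleotide exchange factor for BiP, at 0.08. Creld2 stood at 0.13 and Manf, a secreted protein that stabilises BiP clients, at 0.21. Of the 7 chaperones with ERSE in the promoter, Hsp90b1 and Dnajc3 fell and the other 5 were not called.

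Of the 5 sensor and feedback genes 1 rose, 2 fell and 2 were not called. Ppp1r15a, which encodes GADD34, the phosphatase subunit that reverses eIF2 alpha phosphorylation, read 4.56, 4.97, 5.28 and 5.40 in wild type and 4.66, 6.16, 6.58 and 6.09 without IRAK2. It rose by 1.14 (SE 0.21, adjusted p 0.00297), and the stimulated arrays of each genotype lay above its 0 h array. Eif2ak3, the PERK kinase that phosphorylates eIF2 alpha at the ER, read 6.79, 5.09, 5.83 and 6.35 in wild type and 6.76, 5.28, 5.90 and 6.25 without IRAK2. It fell (-0.996, SE 0.09, adjusted p 9.44e-05), with the lowest array at 2 h and a partial return by 8 h in both genotypes. With the mean of all its probesets Eif2ak3 stood at -0.27. The other probesets averaged 3.26 and 3.63 over the stimulated arrays, under the floor. Ern1, the IRE1 sensor, read 8.78, 8.28, 8.58 and 8.55 in wild type and 8.60, 8.32, 8.25 and 8.46 without IRAK2 (-0.28, SE 0.10, adjusted p 0.0437), and was not called without the 2 h (-0.23) or the 4 h arrays (-0.29) or with the mean of its probesets (-0.01). Its other probesets averaged 3.42 to 3.99 over the stimulated arrays, at most just above the floor. Xbp1, whose splicing IRE1 controls and this array does not resolve, stood at -0.20 and Atf6 at 0.20, neither called.

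In ER-associated degradation, which returns misfolded proteins to the cytosol, Herpud1 was the gene that rose. This scaffold of the ubiquitin ligase complex, whose promoter holds ERSE-II and the amino-acid core, read 7.08, 9.29, 8.54 and 8.20 in wild type and 6.85, 9.18, 7.95 and 7.50 without IRAK2. It rose by 1.48 (SE 0.13, adjusted p 7.6e-05), with its highest array at 2 h in both genotypes. Edem1, a lectin that hands over glycoproteins, stood at -0.26 and Sel1l, the ligase adaptor, at -0.10, neither called.

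From 2 to 8 h of MALP-2, over the 9 stimulated arrays of 3 genotypes, 9 of the 34 genes fell and 3 rose, where 23.3% of 10698 genes were called (16.2% higher, 7.13% lower). The 12 calls are 35.3% of the list, and its decreases outnumber its increases, where over all genes increases were more common. Herpud1 fell by 1.35 (SE 0.16, adjusted p 0.00129), reading 9.29, 9.18 and 8.66 at 2 h in wild type, IRAK2 knockout and double knockout and 8.20, 7.50 and 7.38 at 8 h. Trib3 fell by 0.75 (SE 0.18, adjusted p 0.0194), Hspa5 by 0.56 (SE 0.11, adjusted p 0.00943) and Edem1 by 0.52 (SE 0.11, adjusted p 0.0125). Smaller decreases were called for Pdia3 (-0.46), Psat1 (-0.46), Hsp90b1 (-0.43), Atf6 (-0.42) and Pdia6 (-0.37). Eif2ak3 rose by 0.96 (SE 0.13, adjusted p 0.00197), Slc3a2 by 0.51 and Shmt2 by 0.44. With the mean of all its probesets, the others lying under the floor, Eif2ak3 stood at 0.37. Without the 4 h arrays 5 of the 12 were called (Edem1, Eif2ak3, Herpud1, Hspa5 and Trib3), and without the wild-type or the IRAK2-knockout arrays 2 (Eif2ak3 and Herpud1).

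Between stimulated IRAK2-knockout and wild-type macrophages 1 of the 34 genes was called, and it was higher without IRAK2. It was Ppp1r15a, which at 2, 4 and 8 h read 4.97, 5.28 and 5.40 in wild type against 6.16, 6.58 and 6.09 in the IRAK2 knockout, with 4.56 and 4.66 at 0 h. Its difference was 1.06 (SE 0.17, adjusted p 0.0354; higher at 3 of 3 times), every stimulated knockout array lying above every wild-type array. The fit to the 9 stimulated arrays called 0.71% of 10698 genes (39 higher, 37 lower), and 1 of 34 is 2.94%. The call was lost without the 2, 4 or 8 h arrays (0.99, 0.94 and 1.24), and also when the 0 h arrays of wild type and IRAK2 knockout were added (0.82), where Psat1 was called instead (0.60). Over its alternatives the adjusted p of Ppp1r15a ranged from 0.0065 to 0.485.

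Most ATF4 genes read higher in the IRAK2 knockout than in wild type, but none was called. The arm's median difference over the stimulated times was 0.39, against 0.16 for the chaperones and 0.02 for all genes. An unadjusted p under 0.05 was reached by 7 of its 13 genes and by 1472 of all 10698, but 0 of the 13 were called. At 2, 4 and 8 h, 11, 11 and 10 of the 13 ATF4 genes read higher than in wild type (57.3%, 54.1% and 48.8% of all genes measured), as 10 did at 0 h (48.0%). Psat1 read 7.66, 7.77 and 7.40 in stimulated wild type against 8.29, 8.57 and 8.00 in the knockout (0.68, SE 0.14, adjusted p 0.0833), without overlap, and 7.96 against 8.32 at 0 h. Atf4 differed by 0.63 (adjusted p 0.182), Trib3 by 0.60, Asns by 0.51 and Phgdh by 0.50, none called. Mthfd2, at 0.29, was already 0.66 higher at 0 h, and its other probeset stood at -0.06. Atf5 and Slc3a2 stood below wild type (-0.35 and -0.04), and Atf5 read 4.82, 4.74 and 4.39 in stimulated wild type against 4.31, 4.42 and 4.19 in the knockout. With the double-knockout arrays left out of the fit, 4 genes were called: Ppp1r15a (1.06), Psat1 (0.68), Atf4 (0.63) and Asns (0.51). These differences equal those of the 9-array fit, but their SEs were smaller (for Psat1 0.10 against 0.14). The 0.71% of all genes given above belongs to the 9-array fit, and the share for the fit without double-knockout arrays is not given here. The 4 calls are therefore not to be read against 0.71%, nor as a result about the list. Herpud1 was lower by -0.47 (adjusted p 0.269), reading 9.29, 8.54 and 8.20 in wild type and 9.18, 7.95 and 7.50 without IRAK2.

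**Figure D3:**
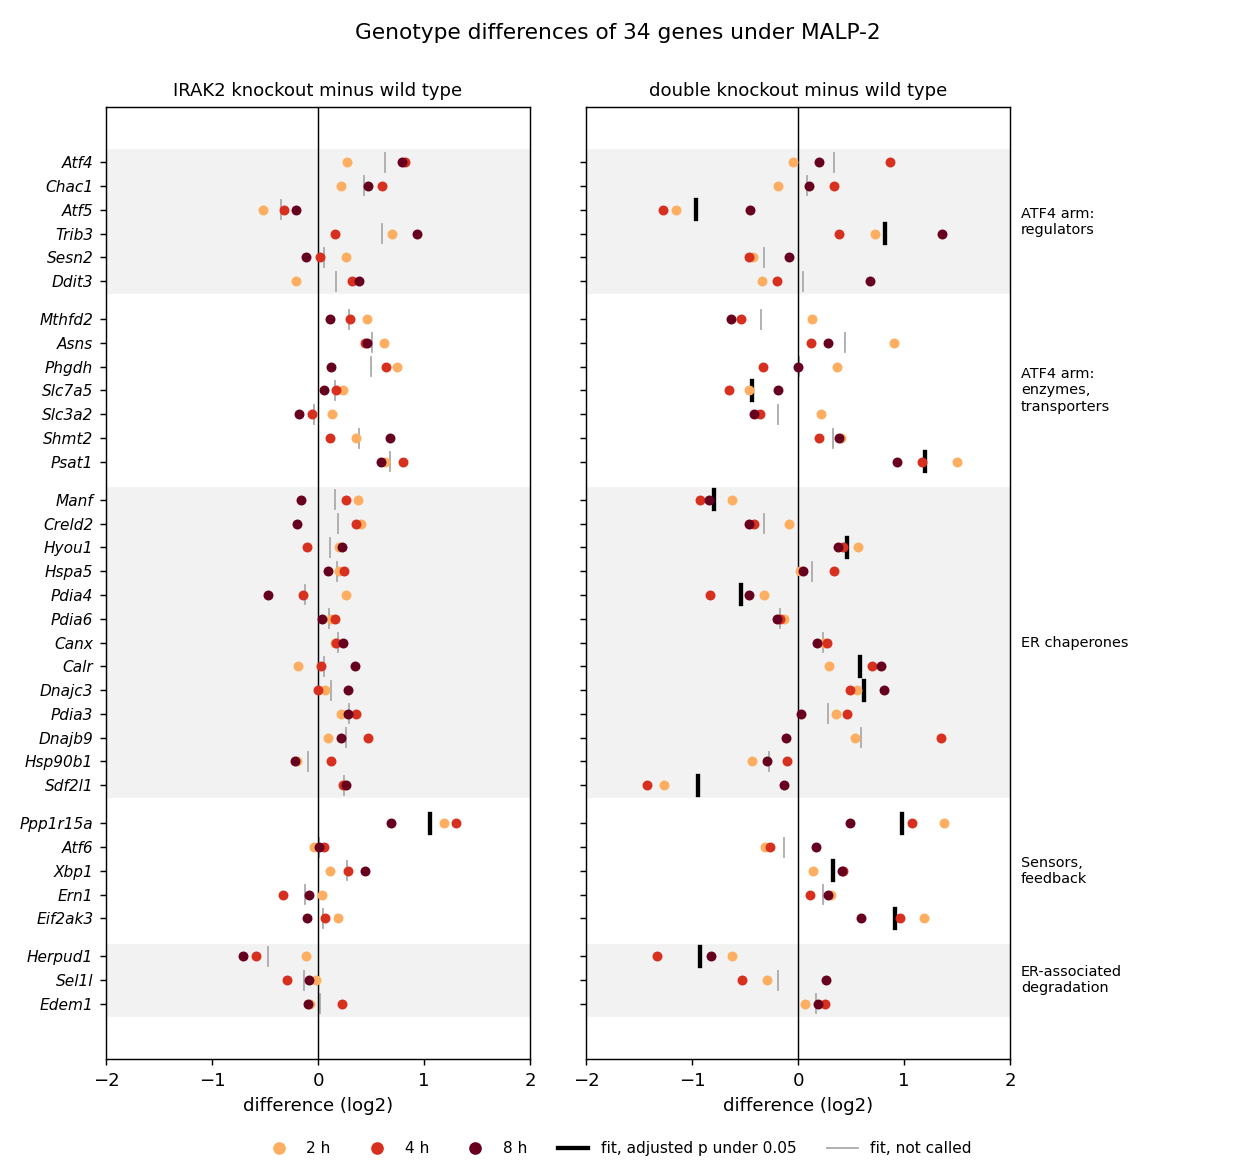
Differences from wild type (log2) of the 34 genes at 2, 4 and 8 h of MALP-2 in the IRAK2 knockout (left) and the double knockout (right), grouped by role, with 1 array per genotype and time. Vertical ticks give the limma estimate over the 3 times, thick and black where the adjusted p is under 0.05: Ppp1r15a on the left, and 14 genes on the right, 8 of them higher and 6 lower.

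In the stimulated double knockout the list was mixed, with 8 genes higher and 6 lower than in wild type. Psat1, Ppp1r15a, Eif2ak3 and Trib3 were higher, while Atf5, Sdf2l1, Herpud1 and Manf were lower, and each role held genes moving either way except the sensors and ER-associated degradation. The same fit called 41.7% of all genes (24.1% higher, 17.6% lower), and 14 of 34 (41.2%) is that share. The stimulated double-knockout arrays have weaker 5' signal: their actin 5' minus 3' values were -4.25, -4.68 and -3.87 against -3.72 to -3.18 in the other genotypes, and their Gapdh values -5.29, -5.90 and -4.36 against -3.84 to -3.42. The part of this in the differences was not tested.

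Among ATF4 genes, Psat1 read 9.16, 8.94 and 8.33 at 2, 4 and 8 h in the double knockout against 7.66, 7.77 and 7.40 in wild type, higher by 1.20 (SE 0.14, adjusted p 0.000367). Its arrays lay above those of wild type at every stimulated time. Trib3 read 6.58, 5.51 and 6.18 against 5.86, 5.12 and 4.82 (0.82, SE 0.18, adjusted p 0.00699), higher at each time but overlapping, and without probesets ending in _x_at or _s_at it was not called (0.25; 0.53 with the mean of its probesets). Atf5, a factor related to ATF4, read 3.67, 3.47 and 3.94 against 4.82, 4.74 and 4.39 (-0.96, SE 0.17, adjusted p 0.0022), so that 2 of its double-knockout arrays were under the floor. Slc7a5 read 4.70, 4.99 and 4.92 against 5.16, 5.64 and 5.10 (-0.43, adjusted p 0.0298), and was not called without the 2 h (-0.42) or 4 h arrays (-0.32). Atf4, Asns, Phgdh and Mthfd2 were not called (0.34, 0.44, 0.01 and -0.35).

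Among chaperones, Dnajc3 read 9.84, 9.77 and 9.97 in the double knockout against 9.28, 9.28 and 9.16 in wild type (0.62, SE 0.11, adjusted p 0.00286), above it at every time, but the mean of all its probesets was not called (0.18). Calr, calreticulin, read 11.79, 12.04 and 11.91 against 11.50, 11.34 and 11.13 (0.59, SE 0.13, adjusted p 0.0081), also without overlap, though not called without the 4 h arrays (0.54), and at 0.95 without probesets ending in _x_at or _s_at. Manf read 6.78, 6.63 and 6.71 against 7.40, 7.56 and 7.55 (-0.79, SE 0.14, adjusted p 0.00227), below it at every time. Sdf2l1 read 4.75, 4.42 and 5.76 against 6.01, 5.85 and 5.90 (-0.94, SE 0.24, adjusted p 0.0143). Its gap was wide at 2 and 4 h and small at 8 h, and the call was lost without the 2 h (-0.78) or the 4 h arrays (-0.70). Pdia4 was lower by -0.54 (adjusted p 0.0307; -0.39 and not called without the 4 h arrays), with 2 of its 3 double-knockout arrays under the floor. Hyou1 was higher by 0.46 (adjusted p 0.0144), but was not called without the 2 h (0.40) or 4 h arrays (0.47), and its other probeset above the floor pointed the other way (-1.40).

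Among sensors, Ppp1r15a read 6.35, 6.36 and 5.90 in the double knockout, close to the 6.16, 6.58 and 6.09 of the IRAK2 knockout and above wild type by 0.98 (SE 0.17, adjusted p 0.00217). Eif2ak3 read 6.28, 6.79 and 6.94 against 5.09, 5.83 and 6.35 in wild type (0.91, SE 0.13, adjusted p 0.000946), higher at each time. It stood at 0.30 with the mean of all its probesets, the others lying under the floor. The double-knockout value at 2 h was thus nearer to the 0 h arrays of the other genotypes (6.79 and 6.76) than the wild-type value was. Xbp1 was higher by 0.33 (adjusted p 0.0464) and was not called when any 1 of the 2, 4 or 8 h times was left out (0.42, 0.28 and 0.28). Herpud1 read 8.66, 7.21 and 7.38 against 9.29, 8.54 and 8.20 (-0.93, SE 0.16, adjusted p 0.00249), lower at each time.

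Against the IRAK2 knockout, the double knockout had 6 of the 34 genes higher and 6 lower, where 39.4% of all genes were called (22.5% higher, 17.0% lower). With arrays centred on their medians the split was 5 higher and 10 lower. Eif2ak3 (0.86, SE 0.13, adjusted p 0.00134) and Manf (-0.95, SE 0.14, adjusted p 0.00114) were called also when any 1 of the 3 times was left out. With the mean of all its probesets, the others lying under the floor, Eif2ak3 stood at 0.21 and was not called. Sdf2l1 read 4.75, 4.42 and 5.76 against 6.25, 6.08 and 6.16 (-1.19, SE 0.24, adjusted p 0.00557). Mthfd2 read 7.87, 8.07 and 7.58 against 8.21, 8.91 and 8.33 (-0.64, SE 0.16, adjusted p 0.0115), lower at each time, and Slc7a5 was lower by -0.59 (adjusted p 0.00871). The other calls were Atf5 (-0.61), Creld2 (-0.51), Calr (0.53), Psat1 (0.52), Dnajc3 (0.50), Ern1 (0.36) and Hyou1 (0.35), the last at -1.86 when probesets ending in _x_at or _s_at were left out. Without the 2 h arrays 4 were called (Calr, Eif2ak3, Manf and Mthfd2), and without the 4 h arrays 2 (Eif2ak3 and Manf). This comparison and the one with wild type share the double-knockout arrays, and the 5' signal values given above belong to it too.

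Whether a genotype difference grew or shrank from 2 to 8 h was tested by its slope on log2 time. In limma 0 of the 34 genes were called for the IRAK2 knockout and 0 for the double knockout, where 0.00935% and 0.14% of all genes were. At an unadjusted p under 0.05 there were 0 and 5 of the 34, where 536 and 1624 of all 10698 genes were. This fit has 2 residual degrees of freedom, and a slope that was not called is not shown to be absent.

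The double knockout's own response depends on which 0 h array it is set against. Against the array labelled double knockout 0 h, 17 of the 34 genes were at least 2-fold higher at each of 2, 4 and 8 h, where 31.5%, 33.0% and 35.3% of all genes measured were. Against the mean 0 h of wild type and IRAK2 knockout, 6, 3 and 2 were (4.29%, 4.65% and 3.47%). In wild type 2, 4 and 2 of the 34 were at least 2-fold higher than 0 h (5.48%, 5.42% and 5.13%), and in the IRAK2 knockout 5, 6 and 2 (4.72%, 4.33% and 3.26%). The chaperone median at 4 h was 0.75 against the array labelled double knockout 0 h and -0.10 against the mean of the others, compared with -0.23 in wild type and -0.09 without IRAK2. For the ATF4 arm these medians were -0.10, 0.39, 0.26 and 0.40. Pdia3 shows the gap: it read 3.48 in the array labelled double knockout 0 h, under the floor, and 7.30 to 8.18 in the other 11 arrays.

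Where a gene has several probesets above the floor, they can be set against each other. This was so for 22 of the 34 genes. For the MALP-2 response all probesets pointed the same way in 18 of the 22 (71.1% of all such genes), the exceptions being Atf6, Hspa5, Pdia6 and Sel1l. For the IRAK2 knockout against wild type 15 of the 22 did (57.9%), the exceptions being Atf6, Ddit3, Dnajc3, Edem1, Hsp90b1, Mthfd2 and Pdia6. For the double knockout against wild type 12 of the 22 did (52.3%), and Atf4, Dnajc3 and Hyou1 were among the 10 that did not. Dnajc3 has 5 such probesets, at 0.62 (the one used), 0.84, 0.40, -0.44 and -0.53. The probesets of Psat1, Herpud1, Calr, Asns and Xbp1 all kept 1 direction in the double knockout.

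**Figure D4:**
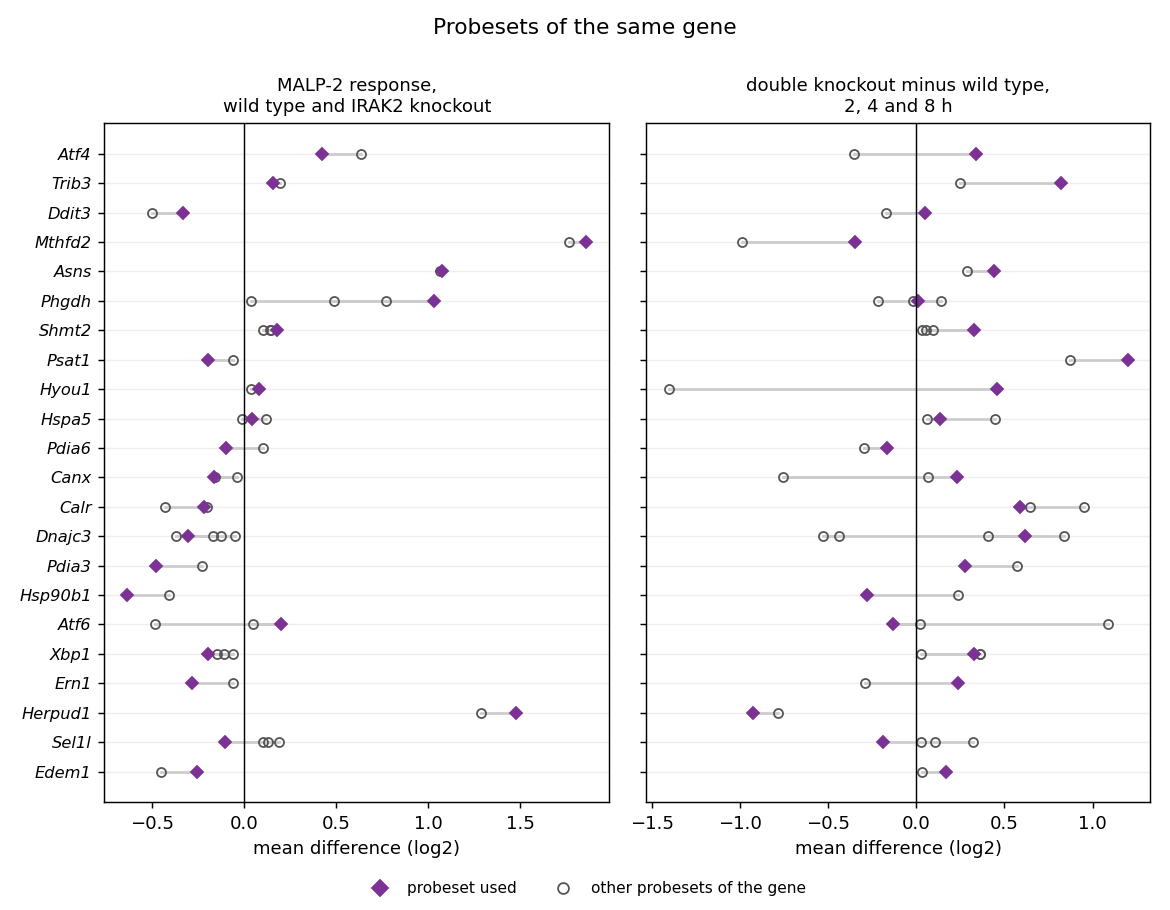
Mean differences (log2) by probeset for the 22 genes with more than 1 probeset above the floor, as the MALP-2 response of wild type and IRAK2 knockout (left) and as double knockout minus wild type over 2, 4 and 8 h (right). Purple diamonds are the probesets used and open circles the others; on the left 18 of the 22 genes have all probesets on the same side of 0, on the right 12.

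Beyond the 34, 91 other genes of the same pathways were listed, of which 87 have a probeset and 81 were tested. Of the 81, MALP-2 raised 21 and lowered 16, or 45.7%, near the 47.5% of all genes. The largest change was of Slc7a11, the cystine importer that feeds glutathione synthesis, which read 5.83, 10.38, 10.59 and 10.40 in wild type and 5.73, 9.99, 10.54 and 10.02 without IRAK2 (4.54, SE 0.10, adjusted p 1.90e-07). It was followed by the transcription factor Cebpb (2.12), the stress-induced chromatin protein Nupr1 (2.07), the arginine importer Slc7a1 (1.33) and Cebpg, a dimer partner of ATF4 that fell (-1.01). In the IRAK2 knockout 0 of the 81 were called against wild type in limma, where 0.71% of all genes were. At an unadjusted p under 0.05 there were 7, against 1472 of all 10698 genes. In the double knockout 23 were higher and 15 lower than in wild type, or 46.9% against 41.7% of all genes. Slc7a11 read 9.10, 9.24 and 8.43 there (-1.54, SE 0.16, adjusted p 0.000234), lower at each time, and Nupr1 was lower by -1.45. Wfs1, the ER membrane protein wolframin, read 8.80, 9.37 and 9.40 against 6.17, 7.08 and 6.64 in wild type (2.56, SE 0.12, adjusted p 9.29e-06), and the amino-acid-sensing eIF2 alpha kinase Eif2ak4 and the alanine aminotransferase Gpt2 were higher by 1.42 and 1.40. Against the IRAK2 knockout 16 were higher and 17 lower (40.7% against 39.4%), led by Wfs1 (2.41), Gpt2 (1.62), Nupr1 (-1.40), Slc7a11 (-1.26) and Serp1 (-1.23), which protects membrane proteins during translocation. From 2 to 8 h 9 of the 81 rose and 2 fell (13.6% against 23.3%), among them the glycine transporter Slc6a9 (1.37), Atf3 (0.89), the mitochondrial folate enzyme Mthfd1l (0.88), Nupr1 (-1.33) and the glutamine transporter Slc38a2 (-0.85).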

How the data were processed

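The deposited table holds log2 values made by the authors with RMA, per the submitters' processing notes, for 45101 probesets on 12 arrays. Per the labels' protocols, Trizol RNA was amplified with a NuGEN Ovation biotin kit and hybridized to Affymetrix arrays. No RMA version is given there. Array medians of the deposited values run from 3.81 to 4.08. The platform annotation gives 34958 probesets 1 symbol, 932 several and 9211 none. For 34754 of these the symbol was taken from the RefSeq gene with the same gene ID, whether or not it differed. Each gene was read from the probeset with the highest mean over 11 arrays, leaving out double knockout 0 h. Genes whose mean reached the floor of 3.86 were fitted with limma 3.58.1 (R 4.3.3), additive in genotype and time, leaving 3 residual degrees of freedom (8 arrays, MALP-2 response), 4 (9 stimulated arrays) or 2 (slopes). The scripts were tested on simulated data. With 1 array per group, precision is limited by the number of arrays, and p-values assume no genotype-by-time interaction. Alternatives were other probesets, centring, floors, prior, times and genotypes left out, and 11 or 12 arrays; the 11-array fit was added after seeing the data. Named are all 34 genes, those called with values, and per fit the 5 largest called changes among related genes. The members and lists were chosen with earlier results of these data known.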

Additional observations from a re-analysis of the deposited data

Results flagged for a closer look

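For 4 of the 34 genes, stimulated double-knockout arrays and stimulated wild-type arrays lay on opposite sides of their 0 h level at all 3 times, the double knockout being set against the mean 0 h of the other genotypes. Of 10698 genes, 10.9% did the same, about the share of the list (11.8%). This difference in response was not tested, and it also holds any constant difference between the genotypes. Psat1 averaged 0.67 above 0 h in the double knockout and -0.35 in wild type, a gap of 1.02. Calr averaged 0.34 and -0.33, a gap of 0.67. Dnajc3 averaged 0.26 and -0.34, a gap of 0.60, and its probesets do not point the same way. Manf averaged -0.66 and 0.20, a gap of -0.86.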

How the results depend on the processing

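The number of the 34 genes called depends on which arrays enter. For the MALP-2 response it was 16, and 6 with all 12 arrays, where Atf4 (-0.10), Dnajc3 (0.079) and Pdia3 (1.12) turned sign; the 4 double-knockout arrays are those added, and with 3 of them, leaving out 0 h, 5 of the 16 lost the call. For IRAK2 knockout against wild type it was 1, and 0, 0 and 0 without the 2, 4 or 8 h arrays and 4 without the double-knockout arrays. For double knockout against wild type it was 14, and 8 without the 4 h arrays. For double knockout against IRAK2 knockout it was 12, and 4 without the 2 h and 2 without the 4 h arrays. For 8 h against 2 h it was 12, and 5 without the 4 h, 2 without the wild-type and 2 without the IRAK2-knockout arrays. Leaving out arrays leaves fewer residual degrees of freedom for every gene. Shares of all genes called are given here only for the main fits. These counts therefore do not show whether the 34 genes lost or gained calls more than other genes did. Hyou1 turned sign against wild type with the mean of all probesets (-0.37) and without probesets ending in _x_at or _s_at (-1.40), and against the IRAK2 knockout likewise (-0.53 and -1.86). The ATF4 median of the double knockout at 4 h against its own 0 h went from -0.10 to 0.25 with the mean of all probesets, 0.14 with centred arrays and 0.39 against the mean 0 h of the other genotypes. The chaperone median went from 0.75 to 0.99 with centred arrays and -0.10 against the mean 0 h of the other genotypes, and that against wild type at 4 h from 0.27 to 0.071 with the mean of all probesets; the cause was not tested. Over all alternatives, 483 of 599 single-gene values kept direction and call, 109 kept direction and lost the call, and 7 turned sign. No paired analysis was possible because each group holds 1 array. Low levels limit Atf5 and Pdia4, which lie near the floor.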

Other observations

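The aminoacyl-tRNA synthetase genes, which load amino acids onto tRNAs and are known ATF4 targets in part, were tested as a related list of 12. Against 0 h, over wild type and IRAK2 knockout, 8 rose and 0 fell (median difference 0.49). Of all genes 19.1% were called higher and 28.4% lower. By time, 4 of the 12 were called higher and 1 lower at 2 h, 8 higher at 4 h and 9 higher at 8 h. None was called lower at the later times. Of all genes, 16.5%, 17.5% and 14.9% were called higher at 2, 4 and 8 h, and 29.4%, 23.4% and 18.3% lower. The medians by time were 0.21, 0.67 and 0.53 (all genes -0.12, -0.04 and -0.03). In the double knockout against wild type 1 was higher and 1 lower (16.7%), where 41.7% of all genes were called. In the IRAK2 knockout 0 of the 12 were called in limma, where 0.71% of all genes were. There 0 had an unadjusted p under 0.05, against 1472 of all 10698 genes. The related list of other ATF4 targets and amino-acid genes was mixed. Of its 22 tested genes 6 rose and 4 fell with MALP-2 (45.5%, median 0.03). Atf3 of that list averaged -1.12 against 0 h in wild type and -0.80 without IRAK2. Of 24 other ER folding and secretory genes, 3 rose and 5 fell with MALP-2 (33.3%, median -0.05). Of 11 other genes of ER-associated degradation 2 rose and 4 fell (54.5%, median 0.02), where 47.5% of all genes were called.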
